A study of Homo sapiens with 4 samples.

Results

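The genes described here are 53 protein-coding genes whose products make ribosomes in the nucleolus, taken by symbol from the 63677 genes of the count tables, each matched to 1 gene on a primary chromosome. All 53 passed the filter on low counts and were among the 15398 genes tested. By role they were 6 genes of RNA polymerase I transcription, 3 core proteins of box C/D and 4 of box H/ACA small nucleolar ribonucleoprotein particles (snoRNPs), 14 small-subunit and 21 large-subunit assembly factors, and 5 nucleolar proteins with several functions.

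The cells were IMR90, a fibroblast line from human fetal lung, listed as passage 5 and grown in MEM. They were collected 72 h after RNAiMAX transfection of siRNA against HMGB1, an abundant chromatin-binding protein, or of a non-targeting control (NTC). Poly(A) RNA was sequenced from 2 isolates of the line, I90-10 (replicate 1) and I90-79 (replicate 2), each giving 1 control and 1 knockdown library, so that there were 2 libraries per group and the same isolates stood on both sides of the comparison. The study's methods name 2 different siRNAs for these cells, and the labels do not say which library received which. The question was how the mRNA levels of the ribosome-making machinery differed once HMGB1 was depleted.

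The 4 libraries held 29861687 to 35317010 counts. HMGB1 itself stood at 181 and 237 CPM (read counts scaled to a common, normalised library size) in the control libraries and at 16.0 and 18.9 CPM in the knockdown libraries, a log2 fold change of -3.59 (SE 0.19, adjusted p = 0.0075) that no longer passed the threshold of 0.01 without knockdown replicate 1 (-3.47) or 2 (-3.71). The summed level of 8 fibroblast genes lay between 18122 and 34123 CPM, whereas the epithelial genes summed to 0.52 to 0.71 CPM and the leukocyte genes to 0.07 to 0.21 CPM. KRT5, CD3E and the endothelial cadherin CDH5 had 0 counts in every library. The endothelial gene VWF was the exception among the markers of other cells, at 1.36 and 0.92 CPM in controls and 4.16 and 2.59 CPM in knockdowns, and its part in the results was not tested.

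A ribosome begins as a long precursor RNA that RNA polymerase I transcribes from repeated genes in the nucleolus. SnoRNPs then guide methylation (box C/D) and pseudouridylation (box H/ACA) of this RNA, while assembly factors fold, cut and pack it into the precursors of the small and large subunits. In fibroblasts as in other cells these genes are known for following growth, and many of them are known targets of the growth regulator MYC, which binds the E-box word CACGTG.

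This word was looked for in the promoters of the members. Promoter sequence, from 250 bases before to 50 bases after the start of each gene (RefSeq, GRCh38.p14), was found for 45 of the 53 genes, and 15 of the 45 (33.3%) held CACGTG, which reads the same on both strands, against 9.83% of the 11104 tested genes with a promoter entry and 7.43% of all 27305 promoters. In 14 of the 15 genes a copy lay within 40 bases of the start. The windows below are those of 5 of the genes with the word that were higher upon knockdown in both isolates without overlap of the groups, and that of FBL, the box C/D methyltransferase, printed 5′ to 3′ along the gene with the E-box in capitals. They lie at chr2:130342902-130342927 on the plus strand for IMP4, chr6:41921517-41921542 on the plus strand for BYSL, chr22:30591882-30591907 on the minus strand for PES1, chr12:6568242-6568266 on the minus strand for NOP2, chr15:34343132-34343157 on the minus strand for NOP10 and chr19:39846358-39846383 on the minus strand for FBL.
IMP4: ctcccggaccCACGTGgaagcggcac
BYSL: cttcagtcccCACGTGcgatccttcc
PES1: cttggcagggCACGTGcgggaggaag
NOP2: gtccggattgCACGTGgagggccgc
NOP10: aattgacgaaCACGTGacgcggtcgg
FBL: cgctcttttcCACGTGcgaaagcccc
A match in these letters is a description of the promoter and not a measured binding site. The median log2 fold change was 0.22 over the 15 members with it, of which 13 were positive, and 0.14 over the 30 without it, of which 24 were positive. Over the 11104 tested genes with a promoter entry it was 0.025 with the word and -0.0028 without it. MRTO4 (-0.12) and NOC3L (-0.14) held the word and were lower upon knockdown. NOB1 (0.82), WDR12 (0.64) and NIP7 (0.61) were higher and had a promoter entry without the word. The printed windows were thus chosen by the direction of the change, FBL aside. A link between the word and the change was not tested. Another word, CCGGAAGT, bound by ETS-family factors and counted on both strands, was in 22.2% of the members' promoters and in 8.58% of those of tested genes. The median change was 0.148 over the 10 members with CCGGAAGT and 0.150 over the 35 without it.

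Most members were slightly higher in the knockdown libraries, and none passed the threshold without regard to isolate. The log2 fold change was positive for 42 of the 53 genes (49.6% of all genes tested were positive), its median was 0.13 against -0.0054 over all genes tested, and it ranged from -0.70 to 0.82. At an adjusted p below 0.01 and a log2 change over 0.6, edgeR called 0 of 53 higher (0.0649% of all genes) and 0 lower (0.136%). At an unadjusted p below 0.05 there were 9 higher (13.6%) and 4 lower (14.7%), and at an adjusted p below 0.05 with any fold there was 1 higher (3.94%), NOB1, and 0 lower (4.5%).

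The replicate numbers mark the same 2 isolates in both groups, so that the comparison can also be made within isolates. With the isolate as a term, 4 members were called higher (6.68% of all genes), namely NOB1, WDR12, IMP4 and NIP7, and 1 was called lower (7.84%), UTP15. Without the fold threshold, 10 members rose (8.69%) and 3 fell (9.43%) at an adjusted p below 0.01. At an adjusted p below 0.05 there were 17 (15.9%) and 4 (16.3%), and at an unadjusted p below 0.05 there were 22 (21.6%) and 5 (22.0%). The sign was positive in this fit for 41 members (49.7%). At the adjusted p of 0.01 the share that rose, 18.9%, was thus above the background and the share that fell, 5.66%, below it, whereas the share of called genes, 7.55% higher and 1.89% lower, was close to the background for the increases and under it for the decreases.

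The 2 isolates went the same way for most members, as they did for most of all genes tested. In both isolates 31 genes (58.5%) were higher upon knockdown, against 38.9% of all genes, and 11 genes (20.8%) were lower in both, against 39.4%. Opposite signs were found in 11 members, against 3340 of all 15398 genes tested. Groups that did not overlap at all, with both knockdown libraries above both controls, were no more frequent than elsewhere, at 16 genes (30.2%, against 29.8%). The reverse order was seen in 5 genes (9.43%, against 30.2%). The median change was 0.21 in I90-10 and 0.10 in I90-79.

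**Figure D1:**
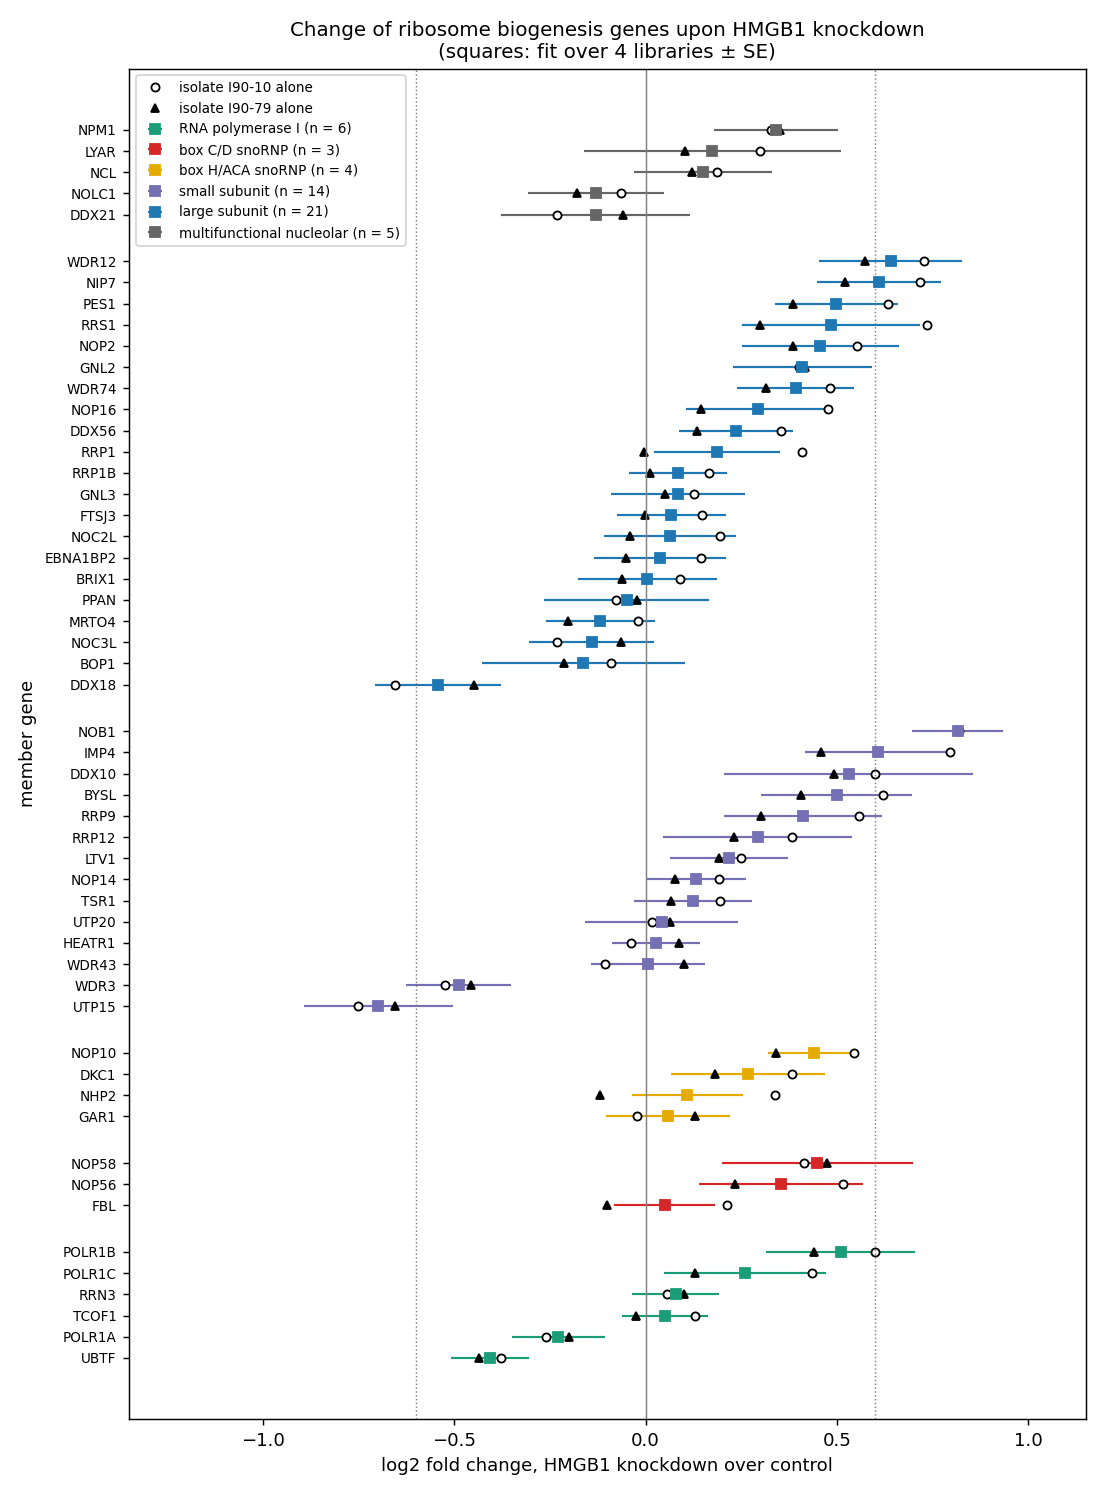
Log2 fold change (knockdown over control) of each of the 53 members, ordered within role groups, with squares for the fit over 4 libraries, bars for ± 1 SE, open circles for isolate I90-10 alone, triangles for I90-79 alone and dotted lines at ± 0.6. Most squares sit to the right of 0, from UTP15 at -0.70 to NOB1 at 0.82.

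**Figure D2:**
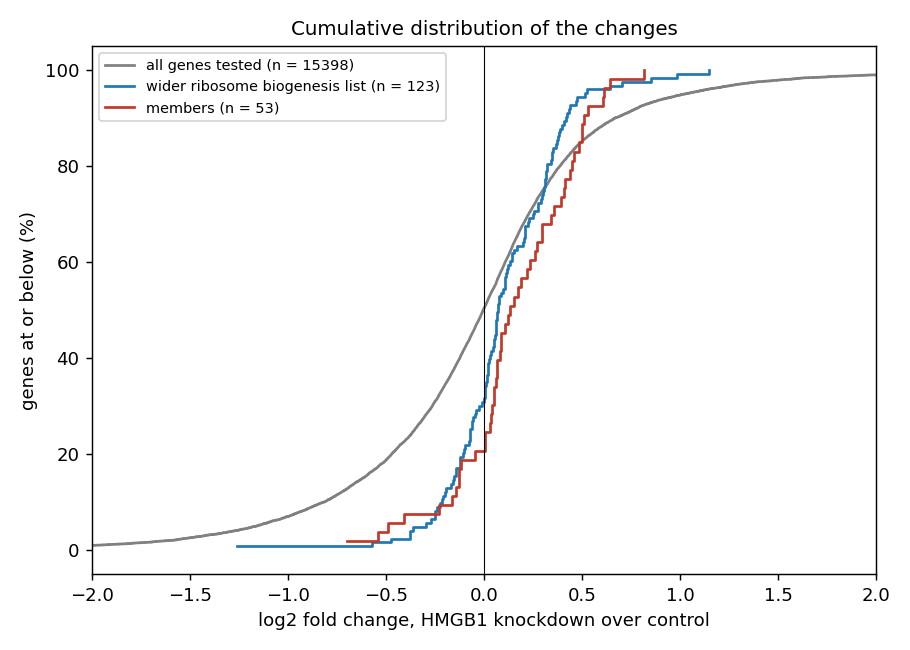
Cumulative share of genes (%) at or below each log2 fold change (knockdown over control) for all 15398 genes tested, the 123 genes of the wider ribosome biogenesis list and the 53 members, on an axis that ends at ± 2. The members' curve crosses 0 lower than that of all genes, with 42 of 53 above 0, and it is narrower at both ends.

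The 6 genes of RNA polymerase I transcription split in direction, with a median log2 change of 0.065. UBTF, the factor that binds and opens the ribosomal RNA gene repeats, stood at 108 and 110 CPM in controls and at 83.0 and 81.2 CPM in knockdowns. Both knockdown libraries were below both controls by a margin far wider than the gap between isolates, a log2 change of -0.41 (SE 0.10, adjusted p = 0.072). With the isolate term the change was the same in size and its adjusted p was 0.012, above the threshold of 0.01.

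The catalytic core of the polymerase is formed by its largest subunits POLR1A and POLR1B, and their mRNAs differed in opposite directions. POLR1A stood at 91.5 and 99.6 CPM in controls and at 76.4 and 86.8 CPM in knockdowns, without overlap, with a log2 change of -0.23 (SE 0.12, adjusted p = 0.28). POLR1B stood at 23.4 and 31.7 CPM in controls and at 35.5 and 43.0 CPM in knockdowns, again without overlap, with a log2 change of 0.51 (SE 0.19, adjusted p = 0.16). POLR1B rose when isolates were paired (log2 change 0.52, SE 0.11, adjusted p = 0.0078), while POLR1A did not pass (adjusted p = 0.098). The remaining genes of the group had positive changes with overlapping groups, at 0.26 for POLR1C, a subunit shared with RNA polymerase III, 0.079 for the initiation factor RRN3 and 0.051 for TCOF1, the nucleolar protein treacle.

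All 7 snoRNP core genes had a positive change, with a median of 0.27. In the box C/D particles, NOP58 stood at 67.4 and 95.0 CPM in controls and at 89.8 and 132 CPM in knockdowns. The groups overlapped because the control library of I90-79 lay above the knockdown library of I90-10, yet within each isolate the knockdown was higher, by 0.41 and 0.47 on the log2 scale. NOP58 accordingly did not pass without the isolate term (0.45, SE 0.25, adjusted p = 0.30) and rose with it (0.44, SE 0.093, adjusted p = 0.0086). Its partner NOP56 had 99.0 and 145 CPM in controls and 141 and 170 CPM in knockdowns, an overlap of the same kind, with an adjusted p of 0.028 when isolates were paired.

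FBL, the enzyme that places the methyl groups, differed from these partners in its pattern. It stood at 91.0 and 110 CPM in controls and at 105 and 102 CPM in knockdowns. The groups overlapped and the isolates moved oppositely, by 0.21 in I90-10 and -0.10 in I90-79. The change over all libraries was 0.049 (SE 0.13, adjusted p = 0.84).

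Among the box H/ACA proteins, NOP10, the smallest of them, had the clearest difference. It stood at 103 and 117 CPM in controls and at 150 and 149 CPM in knockdowns, with both knockdown libraries above both controls, a log2 change of 0.44 (SE 0.12, adjusted p = 0.086, and 0.011 with the isolate term). DKC1, the pseudouridine synthase of the particle, stood at 68.0 and 95.5 CPM in controls and at 88.6 and 108 CPM in knockdowns, with overlapping groups and a log2 change of 0.27 (SE 0.20, adjusted p = 0.43). NHP2 was higher in the knockdown of I90-10 and lower in that of I90-79, and GAR1 changed by 0.059.

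The small-subunit factors held the largest change of either sign. Of 14 genes 12 were positive, and the median was 0.17. With the isolate term 2 were called higher (14.3%, against 6.68% of all genes) and 1 lower (7.14%, against 7.84%). NOB1 (ENSG00000141101, chr16:69775770-69788843, GRCh37, minus strand), the endonuclease that makes the last cut in small-subunit ribosomal RNA, stood at 24.4 and 26.1 CPM in controls and at 43.1 and 45.8 CPM in knockdowns. The groups were far apart and the isolates nearly equal, with changes of 0.82 in I90-10 and 0.81 in I90-79. This 1.76-fold difference was the only one among the members with an adjusted p below 0.05 without the isolate term (log2 change 0.82, SE 0.12, adjusted p = 0.024), and with it the adjusted p was 0.00079. Of the exonic bases of NOB1, 20.2% were also exonic in NQO1-DT on the opposite strand, and without knowledge of the strand setting of the counting these reads cannot be told apart.

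IMP4 (ENSG00000136718, chr2:131099798-131105383, plus strand), a protein of the processome that folds the small-subunit precursor, stood at 48.8 and 69.0 CPM in controls and at 84.7 and 94.8 CPM in knockdowns. The groups did not overlap, and the change was larger in I90-10 (0.80) than in I90-79 (0.46). The log2 change was 0.61 (SE 0.19, adjusted p = 0.11), and 0.63 (SE 0.11, adjusted p = 0.0043) with the isolate term.

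The RNA helicase DDX10 and BYSL, a factor of the late small-subunit precursor, also rose once isolates were paired. DDX10 stood at 30.1 and 51.2 CPM in controls and at 45.6 and 72.0 CPM in knockdowns, the isolates lying further apart than the treatments. Its log2 change was 0.53 with an SE of 0.33 (adjusted p = 0.34) and 0.54 with an SE of 0.10 (adjusted p = 0.0047) once the isolate was a term. BYSL stood at 27.1 and 37.5 CPM in controls and at 41.7 and 49.6 CPM in knockdowns, without overlap (log2 change 0.51 with the isolate term, SE 0.11, adjusted p = 0.0086).

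Against this direction, the small-subunit group also held UTP15 and WDR3. UTP15 (ENSG00000164338, chr5:72861268-72877794, plus strand), a subunit of the t-UTP complex that binds the precursor RNA first and is also known to aid its transcription, stood at 20.3 and 24.5 CPM in controls and at 12.0 and 15.5 CPM in knockdowns. Both knockdown libraries were below both controls, by 0.75 in I90-10 and 0.65 in I90-79 on the log2 scale. The log2 change was -0.70 (SE 0.19, adjusted p = 0.089, and 0.0037 with the isolate term, where the decrease was 1.63-fold). The other t-UTP members listed did not share this difference, at 0.028 for HEATR1 and 0.0056 for WDR43, both with overlapping groups. WDR3, of another processome subcomplex, stood at 58.6 and 65.7 CPM in controls and at 40.7 and 47.8 CPM in knockdowns, without overlap, and fell by 0.49 on the log2 scale with the isolate term (SE 0.098, adjusted p = 0.0069).

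The remaining small-subunit factors had positive changes that did not reach an adjusted p below 0.01 in either fit. RRP9, a protein of the snoRNP that guides the early cuts, had the highest of them at 0.41, with groups that did not overlap. RRP12 stood at 0.29, and LTV1, NOP14, TSR1 and UTP20 between 0.042 and 0.22, all with overlapping groups.

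**Figure D3:**
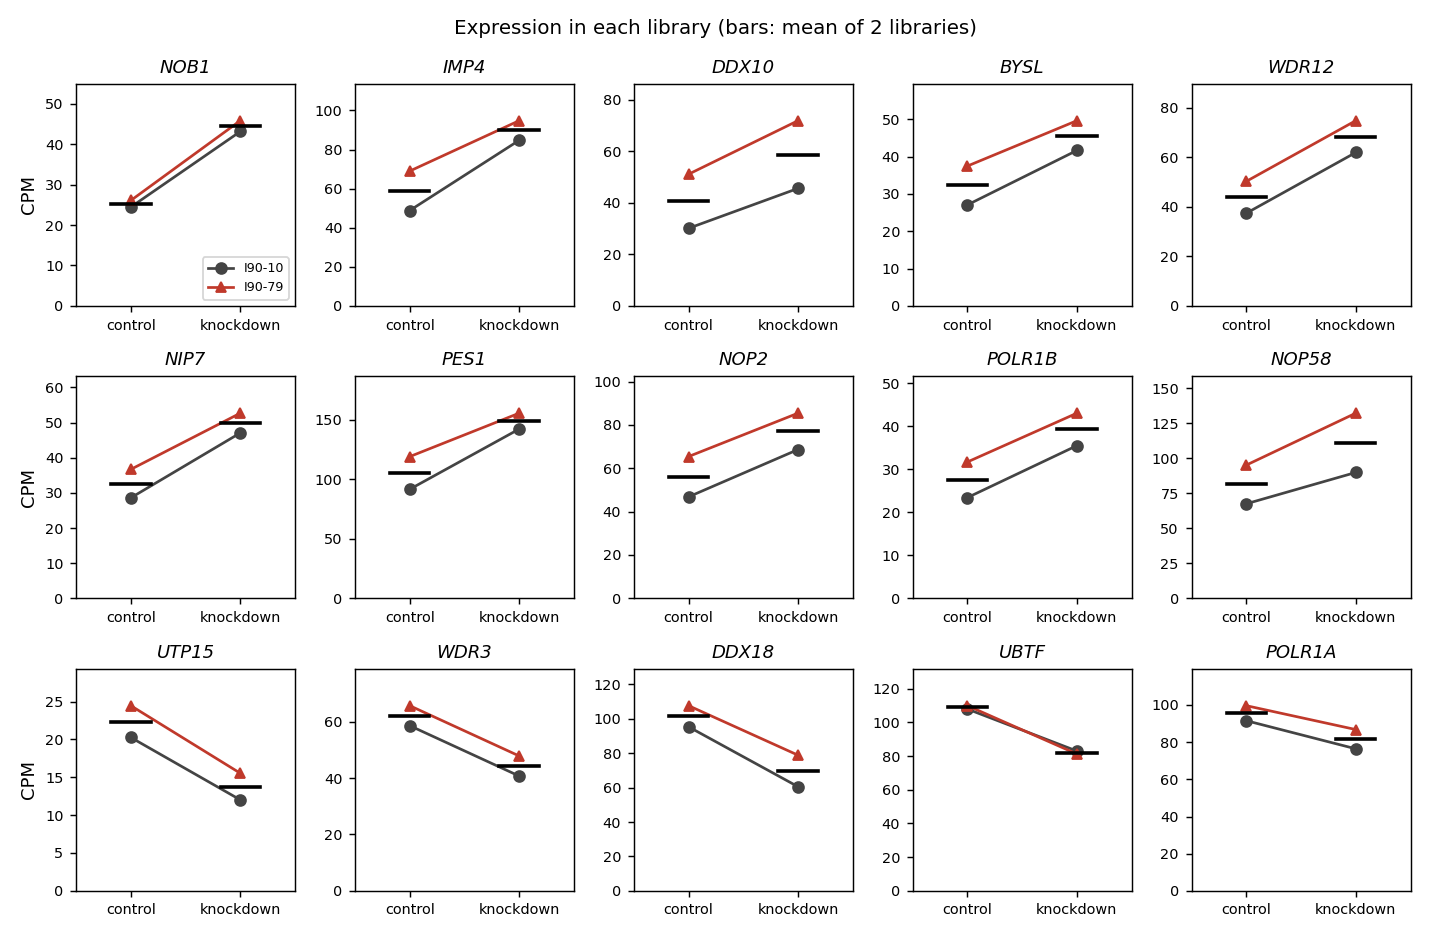
CPM of 15 members in each library, control on the left and knockdown on the right of each panel, with circles and triangles for the 2 isolates, lines joining the libraries of 1 isolate and bars for the mean of 2 libraries; each axis starts at 0. In NOB1 and UBTF the isolates nearly coincide, whereas in DDX10 the gap between isolates is wider than the change upon knockdown.

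Of the 21 large-subunit factors 16 were positive, with a median of 0.085. With the isolate term 2 were called higher (9.52%, against 6.68% of all genes) and 0 lower (against 7.84%). WDR12 (ENSG00000138442, chr2:203739505-203879521, minus strand) stood at 37.4 and 50.3 CPM in controls and at 61.9 and 74.8 CPM in knockdowns. The groups did not overlap, and the log2 change was 0.64 (SE 0.19, adjusted p = 0.099, and 0.0022 with the isolate term). WDR12 forms the PeBoW complex, which processes the large-subunit RNA, with PES1 and BOP1.

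PES1 stood at 91.7 and 119 CPM in controls and at 142 and 156 CPM in knockdowns, both above both controls. It rose by 0.51 on the log2 scale with the isolate term (SE 0.10, adjusted p = 0.0070). BOP1, the third protein of the complex, was at 4.90 and 6.84 CPM in controls and 4.61 and 5.89 CPM in knockdowns, with overlapping groups and a log2 change of -0.16 (SE 0.27). The difference between BOP1 and its partners was not tested, and 50.5% of the 50-base pieces of the BOP1 transcripts also occurred in other annotated genes. Counting only unique reads can miss such pieces if they lie at another place in the genome. The exons of BOP1 overlapped no other gene in the annotation of the counts, and the place of the shared pieces was not examined.

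NIP7 (ENSG00000132603, chr16:69373333-69377014, plus strand), a small protein needed for ribosomal RNA processing, stood at 28.6 and 36.7 CPM in controls and at 47.1 and 52.7 CPM in knockdowns. The groups did not overlap, and the log2 change was 0.61 (SE 0.16, adjusted p = 0.082, and 0.0034 with the isolate term). NOP2, a ribosomal RNA methyltransferase that marks proliferating cells, stood at 46.8 and 65.4 CPM in controls and at 68.6 and 85.4 CPM in knockdowns and rose by 0.47 with the isolate term (SE 0.10, adjusted p = 0.0095). As for BOP1, a large share of the 50-base pieces of NOP2, 49.4%, also occurred in other annotated genes. Its exons overlapped no other gene in the annotation of the counts, and an effect of the shared pieces on its counts was not tested. The increases of PES1, WDR12, NIP7 and NOP2 were each larger in I90-10 than in I90-79.

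DDX18, a helicase of the large-subunit precursor, was the member of this group that fell. It stood at 95.3 and 108 CPM in controls and at 60.5 and 78.8 CPM in knockdowns. All knockdown values were below all control values, and with the isolate term DDX18 fell by 0.55 on the log2 scale (SE 0.10, adjusted p = 0.0046).

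The other 16 large-subunit factors passed in neither fit at an adjusted p below 0.01. RRS1, which helps to place the smallest ribosomal RNA, and the GTPase GNL2 had the highest of their values, at 0.48 and 0.41, with groups that did not overlap and adjusted p of 0.017 and 0.012 with the isolate term. MRTO4, NOC3L and PPAN lay between -0.14 and -0.049. RRP1 and its paralogue RRP1B stood at 0.19 and 0.085.

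The 5 multifunctional proteins include the most abundant members. NPM1, a histone chaperone and nucleolar scaffold, stood at 939 and 1074 CPM in controls and at 1180 and 1370 CPM in knockdowns. The groups did not overlap, with a log2 change of 0.34 (SE 0.16, adjusted p = 0.24, and 0.027 with the isolate term). NCL, nucleolin, stood at 657 and 822 CPM in controls and at 747 and 893 CPM in knockdowns, with overlapping groups and a log2 change of 0.15 (SE 0.18). The helicase DDX21, which also acts at RNA polymerase II genes, and the chaperone NOLC1 lay at -0.13 each, and LYAR at 0.17, all with overlapping groups.

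The role groups thus had medians of 0.065 for RNA polymerase I, 0.27 for the snoRNP cores, 0.17 for the small subunit, 0.085 for the large subunit and 0.15 for the multifunctional proteins, and differences between them were not tested. In summed CPM the genes of RNA polymerase I were at 394 and 435 in controls and 384 and 412 in knockdowns. Those of the small subunit were at 636 and 790 in controls and 736 and 887 in knockdowns, and those of the large subunit at 1081 and 1376 in controls and 1288 and 1483 in knockdowns. In both subunit groups the control library of I90-79 exceeded the knockdown library of I90-10.

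The summed level of the members was lowest in the control library of I90-10, at 4538 CPM, against 5588 CPM in the other control and 5290 and 6207 CPM in the knockdowns. In comparisons that ignore the isolate, the median moved with the library left out. Without the control library of I90-10 the median log2 change was -0.00049, with 26 genes positive and 27 negative. Without the control library of I90-79 it was 0.30, and without a knockdown library it was 0.22 (I90-10 left out) or 0.063 (I90-79 left out). Each of these comparisons sets 1 library of 1 isolate against both isolates, so that the difference between isolates enters them. Within I90-79, a comparison that does not use the control library of I90-10, 34 of 53 members were higher upon knockdown, against 7656 of 15398 genes, with the median of 0.10 given above.

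That difference between isolates was more uniform over the members than the difference upon knockdown. In the fit with both terms, 52 of 53 genes were higher in I90-79 than in I90-10 (50.8% of all genes), UBTF at -0.0019 being the exception, and the median was 0.28 against 0.0061 over all genes. In 47 genes (88.7%, against 33.5%) I90-79 was higher in both groups. The isolate difference was the larger of both in size for 30 members, a share that was not computed over all genes and so cannot be compared.

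DDX10, higher by 0.71 on the log2 scale, was the 1 member called between isolates (0.442% of all genes, adjusted p = 0.0083). At an adjusted p below 0.05 LYAR (0.71), NOP58 (0.53), RRP12 (0.51) and DDX21 (0.50) were higher too (2.7%). No member was called lower (1.23%) or was lower at an adjusted p below 0.05 (4.08%). At an unadjusted p below 0.05 there were 32 higher (10.4%) and 0 lower (11.8%).

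The summed level of 8 proliferation genes was 509 and 889 CPM in controls and 476 and 587 CPM in knockdowns, higher in I90-79 in both groups, whereas that of the 8 fibroblast genes was 34123 and 18122 CPM in controls and 32237 and 20458 CPM in knockdowns, lower in I90-79 in both. Their part in the isolate difference of the members was not tested. With 1 library per isolate and condition, the isolate, its culture and its library preparation cannot be told apart, and neither can fewer cells with a transcript and less of it per cell in RNA of bulk cultures.

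**Figure D4:**
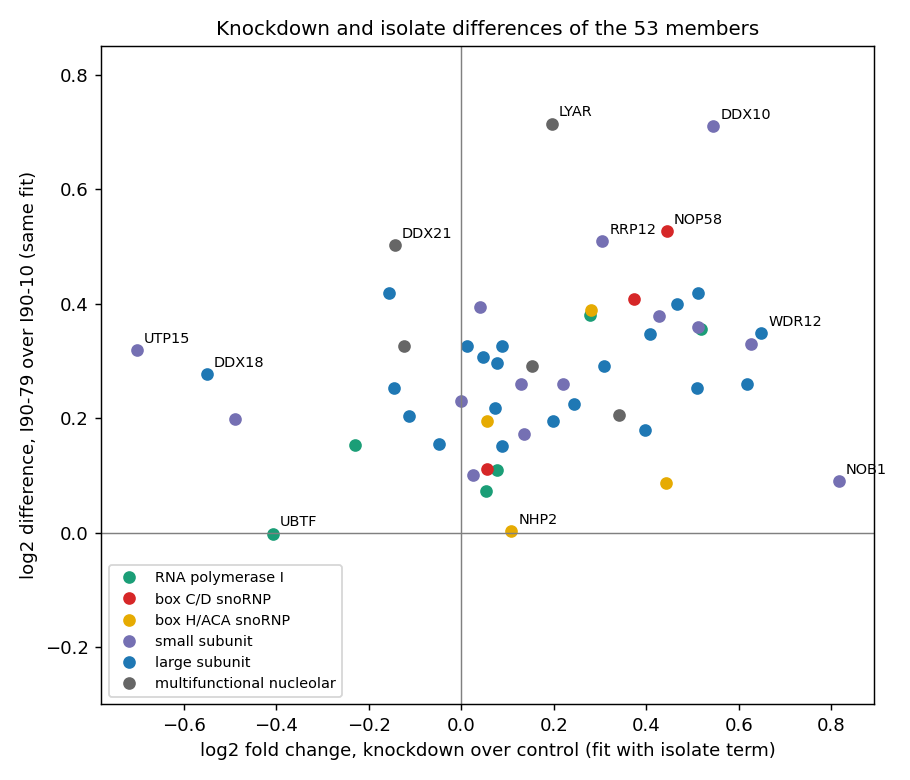
Log2 difference between isolates (I90-79 over I90-10, vertical axis) against log2 fold change upon knockdown (horizontal axis) for the 53 members, both from the fit with an isolate term, coloured by role group. All points but UBTF lie above the horizontal line at 0, while 41 lie to the right of the vertical line.

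Levels between genes were compared as CPM per kb of exon, averaged over the 4 libraries. The median member stood at 15.7 CPM per kb. NPM1 was highest at 298, followed by NOP10 at 235, NCL at 113, DDX21 at 51.3 and FBL at 46.9. NPM1 and NCL together took 33.9% to 36.5% of the members' counts in each library. NPM1, NOP10 and NCL came in this order in every library.

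At the low end stood UTP15 at 3.68, BOP1 at 1.51 and PPAN at 1.25 CPM per kb. PPAN, a large-subunit factor, had 123 to 181 counts per library, and it stood at 4.49 and 4.91 CPM in controls and at 4.26 and 4.84 CPM in knockdowns. Of its exonic bases 71.8% also belonged to the read-through gene PPAN-P2RY11 or to P2RY11, so that its level is uncertain. For BOP1 an effect of the shared pieces on its level was not tested. Pieces shared with other genes were also frequent in LTV1 (30.3%) and RRN3 (25.3%). An overlap of 10% or more was found for 13 members and none for 23.

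**Figure D5:**
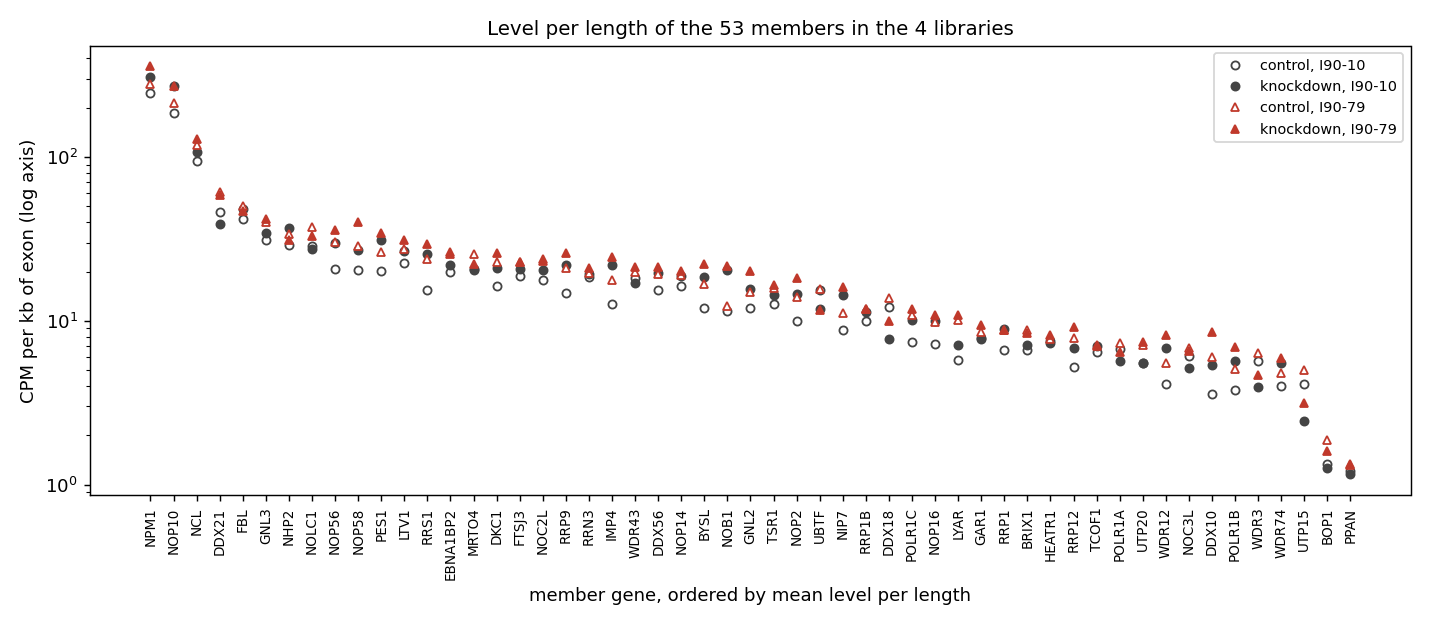
CPM per kb of exon on a log axis for the 53 members in the 4 libraries, ordered by mean level, with open symbols for control, filled for knockdown, circles for I90-10 and triangles for I90-79. NPM1, NOP10 and NCL lie above the rest, and BOP1 and PPAN below it.

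In the 3′ untranslated regions, the word GCAGTT, which an earlier analysis of these libraries had picked out because genes with it were lower upon knockdown, was also counted. Among 12678 tested genes 42.2% held it, with a median log2 change of -0.11 against 0.073 without it, and genes with it had longer regions, with medians of 3133 and 1252 bases. Of 51 members with an annotated region 18 (35.3%) held it, with a median of 0.057 against 0.17. Of the 18 members with the word 10 were positive, among them IMP4, DDX10, NOP2 and NPM1, as were 30 of the 33 without it. UTP15, WDR3 and POLR1A, all lower upon knockdown, had 4 copies each and DDX18, also lower, had 2. Yet WDR12, which rose, had 4 as well, DDX56, which was higher (0.24), had 2, and UBTF, which was lower, had 0. The genes with 4 copies had long regions, of 3286 bases in UTP15, 7096 in WDR3, 7207 in POLR1A and 6599 in WDR12. The medians over the members were 1958 bases with the word and 630 without it. The copies in UTP15, the member lowest upon knockdown, are printed 5′ to 3′ with the word in capitals.
UTP15 copy a: tgtttgcagaaGCAGTTctgtggaagag
UTP15 copy b: cccaatgcagaGCAGTTtgctttgaaaa
UTP15 copy c: cccgggtttaaGCAGTTctcctgcctca
UTP15 copy d: cactgagtgctGCAGTTctcaaaatatg
As the word was chosen on these libraries, its counts are a description. The siRNA sequences are not given in the sources used here.

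Beyond the 53 members, 123 further ribosome biogenesis genes were tested, from a list of 127 symbols. Their median log2 change was 0.069, with 84 positive and 39 negative, and edgeR called 0 without the isolate term. At an unadjusted p below 0.05 there were 15 higher (12.2% of the list, against 13.6% of all genes) and 4 lower (3.25%, against 14.7%). With the isolate term 4 were called higher (3.25%, against 6.68%) and 1 lower (0.81%, against 7.84%), so that both shares were below those of all genes. NMD3, the adaptor that exports the large subunit, stood at 40.8 and 40.2 CPM in controls and at 70.7 and 89.9 CPM in knockdowns. It rose by 0.98 on the log2 scale (SE 0.12, adjusted p = 0.00066 with the isolate term).

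The small-subunit processome, to which UTP15 and WDR3 belong, held genes of the wider list called in both directions with the isolate term. Of the 42 small-subunit factors of that list, 3 were called higher (7.14%, against 6.68% of all genes), namely UTP18, NOL7 and KRR1. UTP3 was the 1 called lower (2.38%, against 7.84%). KRR1 rose by 0.65 (adjusted p = 0.0019 with the isolate term), with overlapping groups and 30.4% of its exonic bases shared with another gene. UTP18 stood at 30.2 and 37.7 CPM in controls and at 57.1 and 65.4 CPM in knockdowns. Its log2 change was 0.85 without the isolate term (adjusted p = 0.039) and 0.86 with it (adjusted p = 0.00061). UTP3 stood at 62.6 and 75.6 CPM in controls and at 25.2 and 32.4 CPM in knockdowns, and it fell by 1.27 with the isolate term (adjusted p = 0.00011). Neither gene had overlapping groups. NOL7 had 3.71 and 5.37 CPM in controls and 8.48 and 11.7 CPM in knockdowns, with 55.4% of its exonic bases shared with other genes, and its groups did not overlap. Of 2 further small-subunit factors, FCF1 stood at 43.8 and 46.3 CPM in controls and at 28.0 and 32.7 CPM in knockdowns, with a log2 change of -0.57 (SE 0.13, adjusted p = 0.061, and 0.0044 with the isolate term). RRP7A stood at 42.8 and 48.1 CPM in controls and at 32.1 and 33.2 CPM in knockdowns, with a log2 change of -0.48 (SE 0.12, adjusted p = 0.076, and 0.0097 with the isolate term). Both knockdown libraries were below both controls for each of them.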

How the data were processed

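Poly(A) RNA of 4 IMR90 cultures was sequenced by the authors as paired ends from TruSeq libraries. The deposited values are raw counts per gene, which the authors made with STAR on hg19 (GRCh37) and featureCounts, keeping uniquely assigned reads. Versions, the strand setting and the annotation release are not given in the sources used here. The deposited table of the authors' own comparison (fold changes and p-values) was not used.

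The 4 count tables were joined by gene. Genes were filtered with filterByExpr, libraries were scaled with TMM, and the groups were compared with the quasi-likelihood test of edgeR 4.0.16 (limma 3.58.1, R 4.3.3), with Benjamini-Hochberg adjustment over the 15398 genes tested. Calls used the thresholds of the study, an adjusted p under 0.01 with a log2 change above 0.6 in either direction. The study used DESeq2 after RUVs, and DESeq2 1.42.0 was an alternative. The setting named RUVs here was a re-implementation and not the package used by the study. It took 1 factor from unscaled log counts, with all filtered genes as controls, so its calls and signs need not be those of the study. CPM were computed from the counts and TMM-scaled library sizes. The scripts were tested on simulated data.

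Samples with the same replicate number come from the same isolate per the labels, and their deviations from the group means correlated at 0.46, so that values with the isolate as a replicate block stand beside the results. That fit leaves 1 residual degree of freedom per gene and borrows the rest of its error from all genes. An exact permutation test of 2 against 2 libraries cannot go below 0.333 and was not used. Separate cultures are stated by isolate only, so p-values measure the spread between these libraries.

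The members, their role groups, the wider list and the GCAGTT word were chosen with earlier results of these data known. Values in every library were given for members called in either fit, the member with the smallest p in each role group, NCL, NPM1, FBL, DKC1, POLR1A and UBTF, the extremes of level per length, genes sharing over 50% of exonic bases, and the 3 genes of the wider list with the smallest p in each direction; other genes were named after their values were seen. The 3′ untranslated regions were the longest annotated per gene (GENCODE, GRCh37, at least 100 bases). Depth set the precision, from 123 counts per library for PPAN to 42792 for NPM1.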

Additional observations from a re-analysis of the deposited data

Results flagged for a closer look

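FBL, the box C/D methyltransferase, differed in opposite directions upon knockdown in the 2 isolates, with a log2 change of 0.21 in I90-10 and -0.10 in I90-79. Its levels were 91.0 and 105 CPM in I90-10 (control and knockdown) and 110 and 102 CPM in I90-79. FBL was 1 of 11 members with opposite signs, against 3340 of all 15398 genes tested, and NHP2 was another, at 0.34 and -0.12. With 1 library per isolate and condition the difference between isolates was not tested.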

How the results depend on the processing

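With all 4 libraries, the members called higher numbered 0 by edgeR with TMM and 4 with no low-count filter, 4 with the replicate block, 4 by DESeq2 with the block, 1 by DESeq2, 1 by RUVs with DESeq2 and 1 (NOB1) at an adjusted p below 0.05 with any fold. Those called lower numbered 0, and 1, 1, 1 and 2 with no filter, the block, DESeq2 with the block and RUVs. Over all genes, edgeR with TMM called 10 of 15398 higher and 21 lower, and with no filter 1118 of 27391 and 1275. Of the 15398 genes the block gave 1028 higher and 1207 lower, and DESeq2 with the block 967 and 1091. DESeq2 gave 728 and 818, and RUVs 877 and 939. The wider list gave 0 higher, and 5 with no filter, 4 with the block, 3 by DESeq2, 5 by DESeq2 with the block, 3 by RUVs and 2 at an adjusted p below 0.05, while its lower calls were 0, and 1 each under the same settings except 2 by RUVs, and 0 to 1 with 1 library left out. NOB1 was called under 5 of 14 settings, and DDX18 under RUVs (-0.62). The no-filter setting lets 27391 genes into the estimate of the spread, and the cause of its extra calls was not tested.

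By RUVs the median was 0.072 over the members, -0.0036 over the multifunctional and 0.12 over the small-subunit genes. With 1 library left out, medians ran from -0.00049 to 0.30 over the members, -0.0031 to 0.13 over RNA polymerase I, 0.10 to 0.66 over box C/D, 0.021 to 0.38 over box H/ACA, 0.024 to 0.33 over small-subunit, -0.027 to 0.29 over large-subunit and -0.17 to 0.32 over multifunctional genes, and HMGB1 from -3.77 to -3.38, losing its threshold without knockdown replicate 1 (-3.47) or 2 (-3.71).

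The sign held in every setting for 30 members, NOB1, IMP4, WDR12, NIP7, UTP15, DDX18, WDR3, UBTF and POLR1B among them, and turned in 23, of which 16 without control replicate 1. With 1 library left out the log2 change ran from -0.38 to 0.10 for BOP1, -0.18 to 0.22 for BRIX1, -0.45 to 0.13 for DDX21, -0.15 to 0.25 for EBNA1BP2, -0.080 to 0.19 for FBL, -0.073 to 0.22 for FTSJ3, -0.079 to 0.19 for GAR1, -0.088 to 0.28 for GNL3, -0.053 to 0.11 for HEATR1, -0.17 to 0.64 for LYAR, -0.26 to 0.038 for MRTO4, -0.0047 to 0.32 for NCL, -0.012 to 0.23 for NHP2, -0.13 to 0.29 for NOC2L, -0.32 to 0.015 for NOC3L, -0.31 to 0.076 for NOLC1, -0.14 to 0.037 for PPAN, -0.00049 to 0.40 for RRP1, -0.027 to 0.20 for RRP1B, -0.024 to 0.13 for TCOF1, -0.030 to 0.30 for TSR1, -0.18 to 0.24 for UTP20 and -0.17 to 0.16 for WDR43. With all libraries the sign turned for 7 members, all near 0, namely by RUVs in BRIX1 (-0.080), EBNA1BP2 (-0.042), GNL3 (-0.0024), LYAR (-0.0036), NOC2L (-0.012), UTP20 (-0.065) and WDR43 (-0.055), with at least 10 counts in every library in BRIX1 (-0.0020) and WDR43 (-0.0010), and with the block in WDR43 (-0.0018). A group left with 1 library is assumed to vary like the other. Isolates leave with their libraries, so these ranges hold the isolate difference too. The medians of all genes stayed within 0.1 of 0 in every setting.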
